A study of Danio rerio with 5 samples.

Results

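The genes of vesicle fusion and exocytosis were taken from the RNA-Seq tables by symbol: synaptotagmins (*syt*), syntaxins (*stx*), syntaxin-binding proteins (*stxbp*), *vamp*, *snap23*, *snap25*, *snap29* and *snap91*, complexins (*cplx*), *sv2*, symbols that start with *rab3*, *rims*, *unc13*, synapsins (*syn1* to *syn3*) and *cadps*. In all, 119 of the 30647 gene names in the tables matched. The rule looks at letters alone, so it also takes in 14 Rabs that share only the start of the symbol, such as *rab32a* and *rab39ba*, as well as 4 regulators of Rab3 and other Rabs and the clathrin adaptor *snap91*. The remaining 100 genes belong to the vesicle fusion families proper.

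The libraries were made from EGFP+ cells sorted from neuroblastomas of *MYCN* transgenic zebrafish and comprised 2 *TATA/TATA* libraries and 3 *lmo1*-/- libraries. In both genotypes the *dβh* (dopamine β-hydroxylase) promoter, which is active in sympathoadrenal cells, drives *MYCN* and EGFP. The *TATA/TATA* fish carry, in the first intron of *lmo1*, a T in place of the G of a conserved GATA motif. The change was introduced with TALENs and traced to a single founder line. The oligonucleotide used for the knock-in also carries CC in place of TT upstream of the T. The *lmo1*-/- fish carry a CRISPR-Cas9 deletion in exon 2 of *lmo1*, also kept as a single line. No *GATA/GATA* fish with an intact *lmo1* gene are analysed here. The age of the fish is not given in the labels, and the labels do not say whether a library holds 1 tumor. The p values therefore measure only the spread between these libraries, which may be technical.

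Secretory vesicles fuse when a SNARE of the vesicle (a VAMP protein) zips up with SNAREs of the target membrane (a syntaxin and a SNAP25-type protein). Syntaxin-binding proteins of the Munc18 type and Unc13 proteins prepare the complex, synaptotagmins sense calcium, complexins hold and release the assembled complex, and Rab3 with RIM proteins brings vesicles to the release site. Sympathetic neurons and the chromaffin cells of the adrenal gland, the relatives of neuroblastoma cells, release catecholamines in this way, while blood cells and epithelia use other paralogs of the same families.

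Between 48144549 and 55782865 reads were counted on genes per library. Levels below are normalised RPKM, that is, RPKM computed with TMM-scaled library sizes so that levels and fold changes agree, and fold changes are log2 of *TATA/TATA* over *lmo1*-/-. Ribosomal protein genes took 21.2% and 21.6% of the counts in the *TATA/TATA* libraries, against 34.5% to 42.5% in the *lmo1*-/- libraries. With the authors' library totals in place of TMM scaling the median over all tested genes moved to 0.41 on the log2 scale, against -0.05 with TMM. A gene close to the middle can therefore take either sign, and 20 of the 81 tested members changed sign. None of the 10 sympathoadrenal markers (such as *dbh*, *th* and *phox2bb*) was at 0 in any library. Their summed level was 1520 and 1450 in the *TATA/TATA* libraries and 2710, 2870 and 3270 in the *lmo1*-/- libraries. Most of this sum came from *th*, *dbh* and *hand2*. The levels of *phox2bb*, *phox2a*, *gata3*, *isl1* and *chga* overlapped between genotypes. The targeted gene *lmo1* was at 15 and 14.3 in the *TATA/TATA* libraries, against 37.9, 36.5 and 57.1 in the *lmo1*-/- libraries. Its reads are counted over all exons, so a small deletion in exon 2 cannot be checked by this level. The *TATA/TATA* libraries were close to each other, with a median ratio of 1.07 between the higher and the lower library over the 85 members that reached a normalised RPKM of 1 in any library, while the highest *lmo1*-/- library stood a median of 1.56 times above the lowest. The 2 *TATA/TATA* libraries still differed beyond counting noise and were kept as separate replicates.

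Most of the vesicle fusion genes tested did not pass between the genotypes, and those that passed were spread over most of the families. Of the 81 members tested, 10 were higher and 11 lower in *TATA/TATA* tumors, and 60 did not pass. The test was edgeR's quasi-likelihood test at a Benjamini-Hochberg adjusted p under 0.05. A member was tested if it reached 1 in the authors' RPKM in 2 or more libraries. The authors' RPKM is lower than the normalised RPKM printed here, more so in the *lmo1*-/- libraries. A gene below this level filter can therefore be printed at more than 1. The 21 called members make up 25.9% of those tested, beside 36.6% over all 13484 tested genes (19.9% higher and 16.7% lower). The genotypes did not overlap in 52 of the 81 members, 27 higher and 25 lower, beside 65.3% of all tested genes (32.3% higher and 33.0% lower). Over the tested members the median was -0.03 on the log2 scale. Another 34 members lay below the level filter and 4 had no read in any library. Of the 81 tested, 6 passed the filter only through the *TATA/TATA* libraries and 4 only through the *lmo1*-/- libraries, and such genes had to differ to be tested. Leaving them aside, 5 were called higher and 8 lower. Without *TATA/TATA* replicate 1 the counts were 5 higher and 4 lower, and without *TATA/TATA* replicate 2 they were 4 and 4, with the lone remaining library assumed to vary like the *lmo1*-/- libraries. Without *lmo1*-/- replicate 1 they were 19 and 17. For the counts that leave out genes or a library, the shares over all tested genes are not given here. Those counts are therefore not read as a result about the members. Only *rab32a*, *rab3db*, *snap23.1*, *stx11a*, *stx12l*, *syt6a*, *syt6b* and *unc13d* were called in each of the 5 fits that left out a library. The other 13 calls were lost without *TATA/TATA* replicate 2 and, apart from that of *rab3il1*, also without *TATA/TATA* replicate 1. The direction of the counts also rests on the scaling, since the authors' library totals gave 23 higher and 6 lower members, beside 29.7% and 6.44% of all tested genes.

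**Figure D1:**
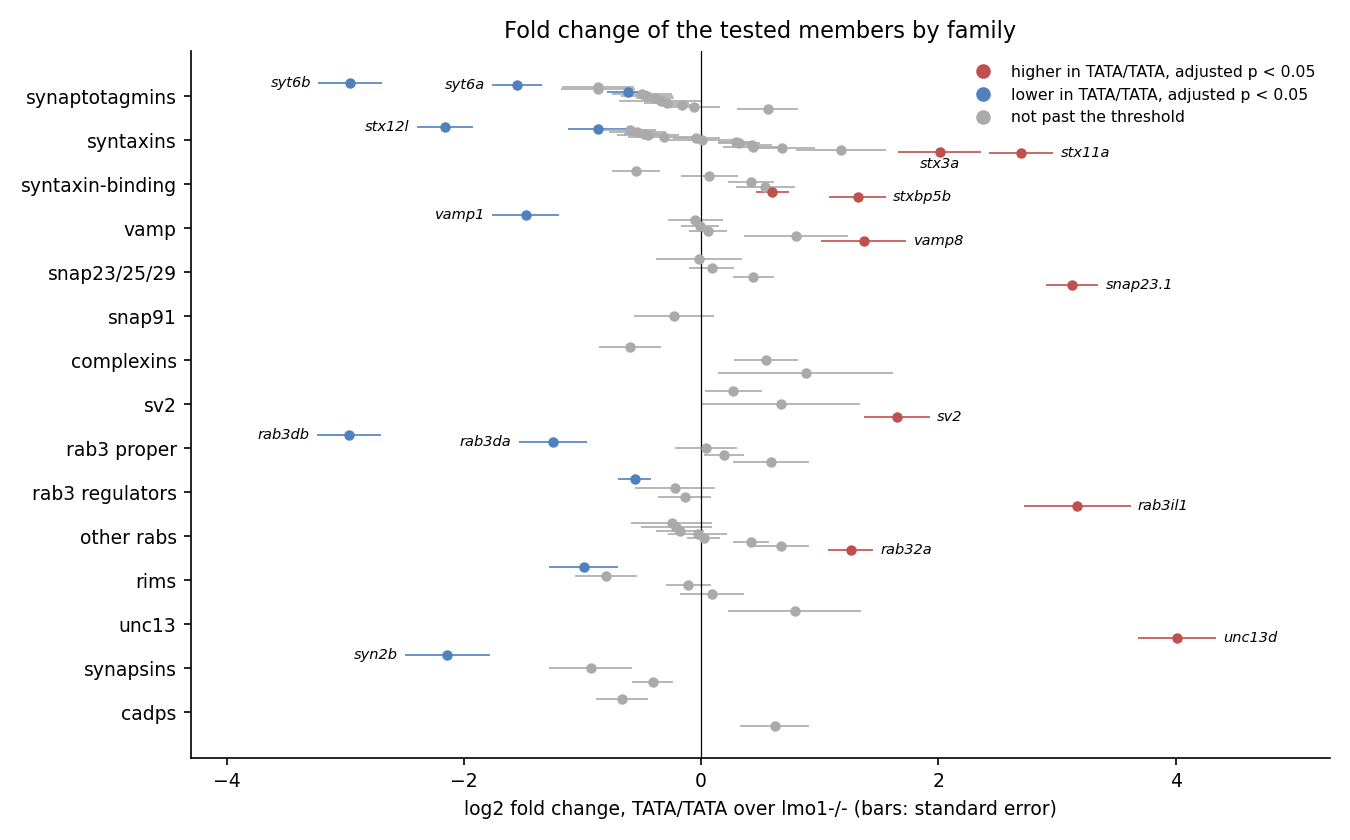
Log2 fold change (*TATA/TATA* over *lmo1*-/-) of the 81 tested members by family, with bars for the standard error. Red and blue points passed an adjusted p of 0.05, 10 of them to the right of 0 and 11 to the left, and the 60 grey points did not.

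Few genes of the core of neuronal release passed the test. Of 35 symbols for the proteins of fast neurotransmitter release, 30 are in the tables and 23 were tested, of which none was higher and 3 were lower in *TATA/TATA* tumors (*syn2b*, *vamp1* and *rims1b*, 13% of those tested, beside 36.6% of all tested genes). Of the core genes below the level filter, 1 was called higher. By unadjusted p under 0.05, 0 were higher and 6 differed in all, DESeq2 called 0 higher and 5 lower, and limma on log2(RPKM + 0.1) called 2 higher and 2 lower. On log2(RPKM + 1) limma called 3 higher (*cadpsa*, *cplx1* and *rab3ab*). For the unadjusted p, DESeq2 and limma the shares over all tested genes are not given here. Those counts are therefore not read as a result about the core. Calls in the core also changed with the library left out. Without *lmo1*-/- replicate 1, *cadpsa*, *cplx2l*, *rab3ab* and *sv2a* were called higher, and *cplx2* and *rims2a* were among the further genes called lower. Without *lmo1*-/- replicate 3, and in a fit with a replicate block, *cplx1* and *sv2bb* were called higher. Levels summed over the 30 genes were 320 and 309 normalised RPKM in the *TATA/TATA* libraries and 343, 298 and 358 in the *lmo1*-/- libraries, and the ranges of the genotypes overlapped. In bulk RNA, fewer cells of a type and less RNA per cell cannot be told apart.

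The vesicle SNARE *vamp2* was at 64.9 and 62.3 normalised RPKM in *TATA/TATA* tumors, against 57.9, 60.4 and 73.7 in *lmo1*-/- tumors (log2 fold change -0.01, SE 0.16). Its target-membrane partner *snap25a* was at 48.1 and 45.3 in *TATA/TATA* tumors, against 36.3, 43.4 and 52.1 in *lmo1*-/- tumors (0.09, SE 0.19). For both genes the *TATA/TATA* values lay between the lowest and the highest *lmo1*-/- library. The sign of *vamp2* turned with the authors' library totals (0.43), and that of *snap25a* without *lmo1*-/- replicate 1 (-0.03). The second copy *snap25b* was at 12.5 and 11.8 in *TATA/TATA* tumors and at 16.6, 6.91 and 13.2 in *lmo1*-/- tumors (-0.02, SE 0.36).

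The calcium sensor *syt1a* was at 24.1 and 22.4 normalised RPKM in *TATA/TATA* tumors, against 26.3, 24.3 and 27.3 in *lmo1*-/- tumors. All 3 *lmo1*-/- libraries were above both *TATA/TATA* libraries, but by little, and the fold change did not pass (-0.16, adjusted p = 0.42 by edgeR's quasi-likelihood test with Benjamini-Hochberg adjustment). Among the complexins, *cplx2* was at 7.34 and 7.69 in *TATA/TATA* tumors, against 7.95, 13.7 and 12.5 in *lmo1*-/- tumors (-0.60), while *cplx1* was at 1.84 and 1.99, against 1.21, 1.03 and 1.68 (0.55). Neither passed, with adjusted p = 0.12 for *cplx2* and 0.17 for *cplx1* by edgeR. The vesicle glycoprotein *sv2a* was at 5.35 and 5.20 in *TATA/TATA* tumors, against 5.69, 3.46 and 4 in *lmo1*-/- tumors, and the groups overlapped.

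**Figure D2:**
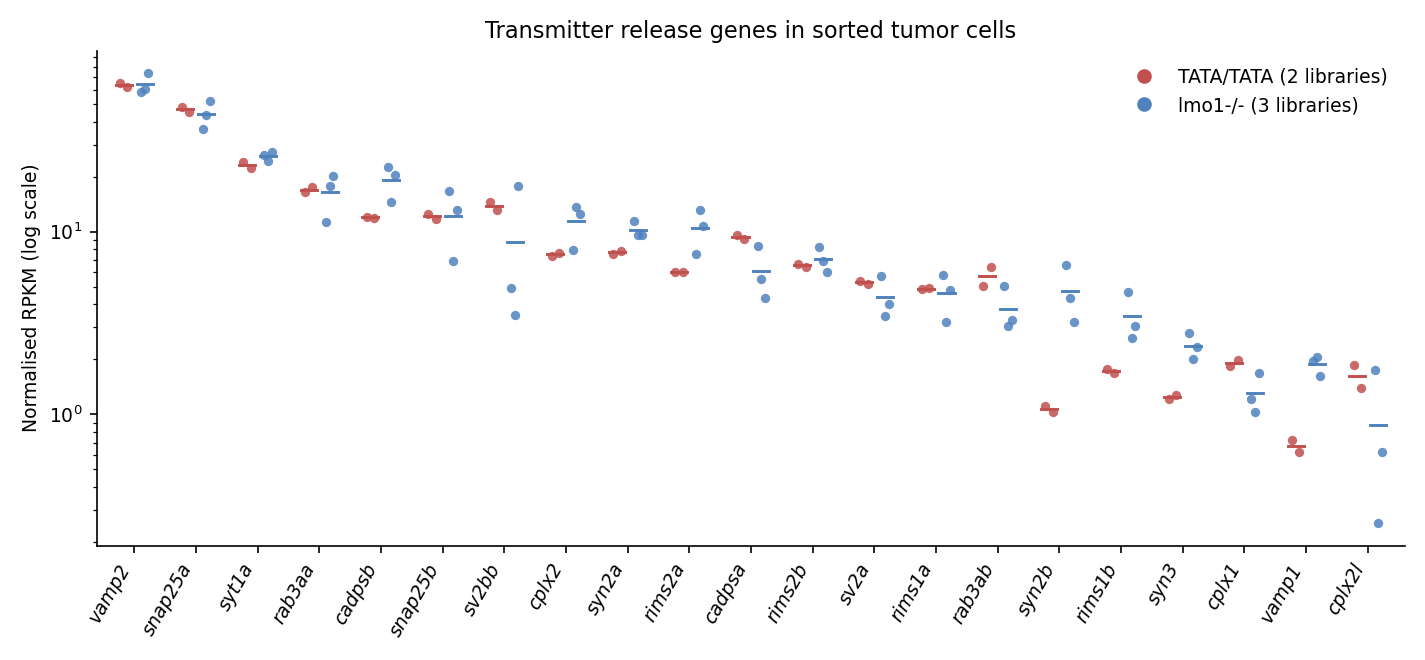
Normalised RPKM (log axis) of genes of the neuronal release core in each library (points) with the genotype mean (lines), *TATA/TATA* to the left of *lmo1*-/-. The points of *vamp2* and *snap25a* overlap between genotypes, while *syn2b*, *vamp1* and *rims1b* lie lower in both *TATA/TATA* libraries.

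The 3 core genes that were lower in *TATA/TATA* tumors each have a more abundant relative that was not called. Synapsins tether vesicles in the reserve pool, and *syn2b* was at 1.11 and 1.03 normalised RPKM in *TATA/TATA* tumors, against 6.61, 4.35 and 3.19 in *lmo1*-/- tumors (log2 fold change -2.14, SE 0.36, adjusted p = 0.0065 by edgeR's quasi-likelihood test). The groups did not overlap, and the lowest *lmo1*-/- library was well above both *TATA/TATA* libraries. The paralog *syn2a* was at 7.53 and 7.88 in *TATA/TATA* tumors, against 11.5, 9.65 and 9.63 in *lmo1*-/- tumors (-0.41, adjusted p = 0.11 by edgeR). The ratio of *syn2b* to *syn2a*, which no library scaling can alter, was 0.147 and 0.130 in *TATA/TATA* tumors, against 0.573, 0.450 and 0.331 in *lmo1*-/- tumors. This pair and the other ratios below were chosen after their values were seen. The vesicle SNARE *vamp1*, a relative of *vamp2*, was at 0.723 and 0.623 in *TATA/TATA* tumors, against 1.95, 2.06 and 1.63 in *lmo1*-/- tumors (-1.48, SE 0.28, adjusted p = 0.0095 by edgeR), and passed the level filter only through the *lmo1*-/- libraries. In every library its level was far below that of *vamp2*.

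RIM proteins build the active zone and hold Rab3 and Unc13 there. The gene *rims1b* was at 1.78 and 1.68 normalised RPKM in *TATA/TATA* tumors, against 4.66, 2.63 and 3.05 in *lmo1*-/- tumors (log2 fold change -0.99, SE 0.29, adjusted p = 0.039 by edgeR's quasi-likelihood test). Its paralog *rims1a* overlapped between genotypes, at 4.87 and 4.90 in *TATA/TATA* tumors and 5.81, 3.19 and 4.81 in *lmo1*-/- tumors. The ratio of *rims1b* to *rims1a* was 0.366 and 0.343 in *TATA/TATA* tumors, against 0.803, 0.824 and 0.635 in *lmo1*-/- tumors. A second RIM gene, *rims2a*, was at 5.99 and 6.03 in *TATA/TATA* tumors and 7.59, 13.1 and 10.8 in *lmo1*-/- tumors and just missed the threshold (-0.80, adjusted p = 0.059 by edgeR). In DESeq2 *rims2a* passed (-0.78, adjusted p = 0.028), while with the authors' library totals it did not (-0.34). Without 1 or the other *TATA/TATA* library the adjusted p in edgeR was 0.051 and 0.058 for *syn2b*, 0.097 and 0.14 for *vamp1*, and 0.18 and 0.21 for *rims1b*, and without *lmo1*-/- replicate 3 it was 0.057 for *rims1b*. With the authors' library totals *rims1b* did not pass (-0.55, adjusted p = 0.23 in edgeR), while *syn2b* and *vamp1* did.

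Proteins of the CAPS type, encoded by *cadps* genes, prime the dense-core vesicles that carry catecholamines and peptides. The paralogs *cadpsa* and *cadpsb* had opposite signs. The level of *cadpsa* was 9.62 and 9.08 normalised RPKM in *TATA/TATA* tumors, against 8.36, 5.54 and 4.36 in *lmo1*-/- tumors (0.62, adjusted p = 0.14 by edgeR). The level of *cadpsb* was 12.1 and 11.9 in *TATA/TATA* tumors, against 22.5, 14.5 and 20.4 in *lmo1*-/- tumors (-0.67, adjusted p = 0.056 by edgeR). Neither gene passed, though the genotypes overlapped in neither. With the authors' library totals *cadpsa* passed (1.09, adjusted p = 0.027 in edgeR) and *cadpsb* did not (-0.24). In DESeq2 *cadpsb* passed (-0.65, adjusted p = 0.02) and *cadpsa* did not. The ratio of *cadpsb* to *cadpsa* was 1.26 and 1.31 in *TATA/TATA* tumors, against 2.69, 2.61 and 4.68 in *lmo1*-/- tumors.

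Within the Rab3 GTPases, which mark secretory vesicles before release, the *rab3d* paralogs were lower in *TATA/TATA* tumors while the most abundant member was not called. By the mean over all libraries *rab3c* was the most abundant of the 119 genes, though *vamp2* was above it in each *lmo1*-/- library. The level of *rab3c* was 71.3 and 70.2 normalised RPKM in *TATA/TATA* tumors and 53.9, 60.3 and 72.3 in *lmo1*-/- tumors (log2 fold change 0.19, SE 0.17, adjusted p = 0.43 by edgeR's quasi-likelihood test). In mammals Rab3d is known from the secretory granules of exocrine glands and mast cells. Its copy *rab3db* was at 4.50 and 4.49 in *TATA/TATA* tumors, against 26.2, 35.8 and 43.4 in *lmo1*-/- tumors (-2.97, SE 0.27, adjusted p = 0.00085 by edgeR), with every *lmo1*-/- library far above both *TATA/TATA* libraries. The other copy, *rab3da*, was at 22.2 and 21.9 in *TATA/TATA* tumors, against 35.4, 53.8 and 67.7 in *lmo1*-/- tumors (-1.25, SE 0.29, adjusted p = 0.019 by edgeR). The groups of *rab3da* did not overlap either, and the call was lost without either *TATA/TATA* replicate (adjusted p = 0.12 in edgeR each time), without *lmo1*-/- replicate 2 (0.059) and with the authors' library totals (-0.81, adjusted p = 0.11), under which *rab3db* was still called (-2.52).

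As a share of all *rab3* transcripts, computed per length within each library and so free of scaling, *rab3db* made up 3.76% and 3.72% in *TATA/TATA* tumors, against 19.8%, 21.0% and 21.0% in *lmo1*-/- tumors. The share of *rab3da* was 18.5% and 18.1% in *TATA/TATA* tumors, against 26.8%, 31.5% and 32.7% in *lmo1*-/- tumors. The 2 *rab3d* copies thus held more of the family in each *lmo1*-/- library than in either *TATA/TATA* library. The share of *rab3c* was 59.6% and 58.1% in *TATA/TATA* tumors, against 40.8%, 35.3% and 34.9% in *lmo1*-/- tumors, where its own level was not called different. The copies *rab3aa* and *rab3ab*, orthologs of the Rab3a of brain synapses, did not pass. The level of *rab3aa* was 16.4 and 17.5 in *TATA/TATA* tumors and 11.3, 17.7 and 20.3 in *lmo1*-/- tumors. That of *rab3ab* was 5.03 and 6.37 in *TATA/TATA* tumors and 5.02, 3.04 and 3.27 in *lmo1*-/- tumors.

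**Figure D3:**
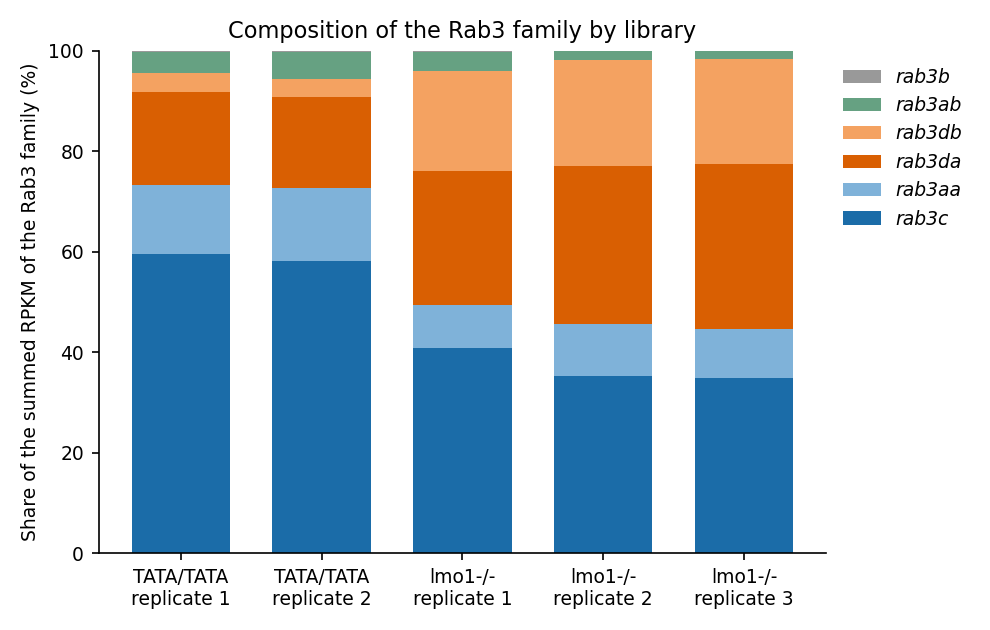
Share of *rab3* family transcripts held by each paralog in each library (percent of summed RPKM, *TATA/TATA* libraries left of *lmo1*-/- libraries). The *rab3db* share was 3.76% and 3.72% in *TATA/TATA* libraries and 19.8% to 21.0% in *lmo1*-/- libraries.

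Of the regulators, *rab3ip* (Rabin8 in mammals, an exchange factor for Rab8) was at 29.1 and 28.5 normalised RPKM in *TATA/TATA* tumors, against 40.6, 43.5 and 43.1 in *lmo1*-/- tumors (log2 fold change -0.56, SE 0.14, adjusted p = 0.023 by edgeR's quasi-likelihood test). With the authors' library totals it was -0.10 (adjusted p = 0.68 in edgeR). The adjusted p was 0.23 and 0.26 without *TATA/TATA* replicates 1 and 2, and it was 0.056 without *lmo1*-/- replicate 3. Its relative *rab3il1* was at 1.49 and 1.88 in *TATA/TATA* tumors, against 0.274, 0.107 and 0.174 in *lmo1*-/- tumors (3.17, SE 0.45, adjusted p = 0.0036 by edgeR), and passed the level filter only through the *TATA/TATA* libraries. Leaving out *TATA/TATA* replicate 2 took its adjusted p to 0.051. The 2 exchange factor genes thus differed in opposite directions. The subunit genes *rab3gap1* and *rab3gap2* of the Rab3 GTPase-activating complex overlapped between genotypes, at 4.62 to 10.1 over all libraries.

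Of the 13 synaptotagmins tested, 3 passed, all lower in *TATA/TATA* tumors (*syt6a*, *syt6b* and *syt12*), beside 16.7% of all tested genes that were lower. In this family 12 of 13 log2 fold changes were negative, and the share of negative signs over all tested genes is not given here. The family median was -0.46, beside -0.05 over all tested genes. With the authors' library totals it was -0.03, beside 0.41 over all tested genes. Syt6 is known in mammals from the exocytosis of the sperm acrosome. Its copy *syt6a* was at 6.02 and 6.19 normalised RPKM in *TATA/TATA* tumors, against 21.9, 15.9 and 15.8 in *lmo1*-/- tumors (-1.55, SE 0.21, adjusted p = 0.0031 by edgeR's quasi-likelihood test). The copy *syt6b* was at 0.504 and 0.620 in *TATA/TATA* tumors, against 5.12, 4.49 and 3.56 in *lmo1*-/- tumors (-2.96, SE 0.27, adjusted p = 0.00090 by edgeR), and passed the filter only through the *lmo1*-/- libraries. Neither copy overlapped between genotypes, and both stayed called in each fit without a library and with the authors' library totals. The level of *syt12* was 7.42 and 6.77 in *TATA/TATA* tumors, against 11.3, 11.8 and 9.72 in *lmo1*-/- tumors (-0.62, SE 0.17, adjusted p = 0.031 by edgeR), and did not pass with the authors' library totals (-0.16, adjusted p = 0.54) or without either *TATA/TATA* replicate (0.20 and 0.29) or *lmo1*-/- replicate 2 (0.057). The most abundant synaptotagmins besides *syt1a* were *syt11b* and *syt4*, neither of which passed. The level of *syt11b* was 23.7 and 21.2 in *TATA/TATA* tumors, against 31.3, 24.2 and 37.4 in *lmo1*-/- tumors (-0.46, adjusted p = 0.15 by edgeR).

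Syntaxins and SNAP proteins of inner membranes gave 2 calls among 14 tested trafficking genes, both lower in *TATA/TATA* tumors (14.3% called, beside 36.6% of all tested genes). Syntaxin 12 works in recycling endosomes, and the gene *stx12l* was at 1.04 and 1.05 normalised RPKM in *TATA/TATA* tumors, against 4.72, 5.57 and 3.72 in *lmo1*-/- tumors (log2 fold change -2.16, SE 0.24, adjusted p = 0.0017 by edgeR's quasi-likelihood test). The groups did not overlap, though the gene passed the filter only through the *lmo1*-/- libraries. The related gene *stx12* was at 18.1 and 16.7 in *TATA/TATA* tumors and 14.4, 13.8 and 14.6 in *lmo1*-/- tumors (0.29, adjusted p = 0.18 by edgeR). Syntaxin 18 serves transport from the Golgi back to the endoplasmic reticulum. The level of *stx18* was 14.7 and 18 in *TATA/TATA* tumors, against 23.8, 37.6 and 28.1 in *lmo1*-/- tumors (-0.87, SE 0.25, adjusted p = 0.037 by edgeR), and this call was lost without any of *TATA/TATA* replicates 1 and 2 and *lmo1*-/- replicates 2 and 3 (0.26, 0.14, 0.059 and 0.068) and with the authors' library totals (-0.40, adjusted p = 0.23). The other 12 trafficking genes tested, among them *stx5a*, *stx6*, *stx16*, *vamp4* and *snap29*, did not pass, and the median over the 14 was 0.17. The direction of these calls rests on the scaling. With the authors' library totals 6 of the 14 were higher and 1 lower, beside 29.7% and 6.44% of all tested genes. Among those higher were *stx5a*, *stx16* and *snap29*. In DESeq2 *stx5a*, *stx7l* and *snap29* were also called higher, and *stx6* was called lower.

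Some markers of neural and adrenal cells were also lower in *TATA/TATA* tumors. Of the 10 sympathoadrenal markers, whose sums are given above, 4 were lower and 6 not called, and with the authors' library totals 2 were lower. The 7 pan-neuronal markers went both ways, with 2 called lower (*stmn2a* and *map1b*) and 2 called higher (*stmn2b* and, below the level filter, *nefma*). They summed to 171 and 163 normalised RPKM in *TATA/TATA* libraries, against 348, 273 and 306 in *lmo1*-/- libraries, most of it from *tubb5* and *stmn2a*. The 6 markers of interrenal cells, the steroid-producing cells that lie among the chromaffin cells of fish, summed to 17.7 and 21.5 in *TATA/TATA* libraries, against 93.1, 88.3 and 34 in *lmo1*-/- libraries. Most of this sum came from *star*. Of these 6, *star* and, below the level filter, *mc2r* were called lower and 0 were called higher. The markers *cyp11a2*, *cyp17a2* and *cyp21a2* overlapped between genotypes and were not called. None of these markers was at 0 in any library. The part of such cells in the levels of *rab3db*, *rab3da*, *syt6a*, *syt6b*, *syn2b* and the other lower genes was not tested.

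Most of the members higher in *TATA/TATA* tumors were on a list of exocytosis genes with roles in cells other than neurons. Of 19 such genes listed, 15 were tested, of which 7 were higher (46.7%, beside 19.9% of all tested genes) and 0 lower by edgeR, with 2 lower at an unadjusted p under 0.05 and 0 lower in DESeq2 and in limma. The list includes genes that neurons also use, such as the tomosyn gene *stxbp5b* and *syt7a*. Among the 7 were *unc13d*, *stx3a* and *stxbp5b*, which passed the level filter only through the *TATA/TATA* libraries, so that 4 genes were called without such a filter effect. For that count the share over all tested genes is not given here. Like the other lists, this list was chosen with earlier results of these data known. These counts are therefore not read as a result about the list. Over the 15 genes the median was 0.60 on the log2 scale.

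Unc13d (Munc13-4) primes the granules of cytotoxic lymphocytes and other blood cells. Its gene was at 3.39 and 4.03 normalised RPKM in *TATA/TATA* tumors, against 0.285, 0.143 and 0.255 in *lmo1*-/- tumors (log2 fold change 4.01, SE 0.33, adjusted p = 0.00067 by edgeR's quasi-likelihood test), the largest fold change of the tested members. Both *TATA/TATA* values were far above the highest *lmo1*-/- value. Syntaxin 11, its partner in cytotoxic granule release, was represented by *stx11a* at 10.8 and 12.6 in *TATA/TATA* tumors, against 1.46, 1.60 and 2.33 in *lmo1*-/- tumors (2.70, SE 0.27, adjusted p = 0.0011 by edgeR). The Munc18 protein that binds syntaxin 11 is Stxbp2, and *stxbp2* was at 24.5 and 23.7 in *TATA/TATA* tumors, against 16.8, 15.2 and 15.7 in *lmo1*-/- tumors (0.60, SE 0.14, adjusted p = 0.018 by edgeR). In none of the 3 did the genotypes overlap. The call of *stxbp2*, whose difference was the smallest, was lost without either *TATA/TATA* replicate (adjusted p = 0.21 and 0.18 in edgeR).

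Snap23 is the widely expressed relative of Snap25. The gene *snap23.1* was at 12.6 and 12.3 normalised RPKM in *TATA/TATA* tumors, against 1.73, 1.32 and 1.23 in *lmo1*-/- tumors (log2 fold change 3.13, SE 0.22, adjusted p = 0.00042 by edgeR's quasi-likelihood test). Its ratio to *snap25a* was 0.262 and 0.273 in *TATA/TATA* tumors, against 0.0476, 0.0303 and 0.0236 in *lmo1*-/- tumors. The neighbouring tandem copy *snap23.2* had 64 and 88 reads in *TATA/TATA* tumors and 0 reads in each *lmo1*-/- library, and was at least 16.3-fold higher against a floor of 3 counts per library (adjusted p = 0.0035 by edgeR over all genes with a count). How reads shared by the copies were divided is uncertain. Vamp8 acts in late endosome fusion and in granule release by blood cells, and *vamp8* was at 4.41 and 4.84 in *TATA/TATA* tumors, against 1.16, 1.65 and 2.55 in *lmo1*-/- tumors (1.37, SE 0.36, adjusted p = 0.028 by edgeR). The *vamp8* groups did not overlap, and the call was lost without either *TATA/TATA* replicate (adjusted p = 0.13 and 0.17 in edgeR) and without *lmo1*-/- replicate 2 (0.083).

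Syntaxin 3 serves the apical membrane of epithelia, and *stx3a* was at 1.29 and 1.44 normalised RPKM in *TATA/TATA* tumors, against 0.378, 0.400 and 0.240 in *lmo1*-/- tumors (log2 fold change 2.01, SE 0.35, adjusted p = 0.0067 by edgeR's quasi-likelihood test). Tomosyn, encoded by *stxbp5* genes, competes with VAMP for syntaxin, and *stxbp5b* was at 2.48 and 2.87 in *TATA/TATA* tumors, against 1.30, 0.844 and 1.06 in *lmo1*-/- tumors (1.32, SE 0.24, adjusted p = 0.0079 by edgeR). The paralog *stxbp5a* went the other way without passing, at 1.85 and 1.87 in *TATA/TATA* tumors and 2.93, 2.18 and 3.03 in *lmo1*-/- tumors (-0.55, adjusted p = 0.084 by edgeR). Without 1 or the other *TATA/TATA* library both calls were lost, with adjusted p = 0.074 and 0.099 in edgeR for *stx3a* and 0.053 and 0.087 for *stxbp5b*. The most abundant genes of the list did not pass. The Munc18 gene *stxbp3* was at 32.8 and 31.3 in *TATA/TATA* tumors and 24.4, 19.2 and 28.0 in *lmo1*-/- tumors (0.42, adjusted p = 0.14 by edgeR), the plasma membrane syntaxin gene *stx4* at 20.1 and 20.6 in *TATA/TATA* tumors and 19.0, 33.4 and 30.5 in *lmo1*-/- tumors, and *vamp3* (cellubrevin) overlapped between genotypes. With the authors' library totals *stxbp3* passed (0.86, adjusted p = 0.049 in edgeR). Without *lmo1*-/- replicate 1 *stx4* was called lower in *TATA/TATA* tumors (-0.66, adjusted p = 0.0086 in edgeR).

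Markers of white blood cells were also higher in *TATA/TATA* tumors. Of 13 macrophage markers, such as *mpeg1.1*, *csf1ra* and *marco*, 12 were higher in *TATA/TATA* tumors, with a summed level of 2840 and 3020 normalised RPKM in *TATA/TATA* libraries and of 212, 190 and 259 in *lmo1*-/- libraries. Most of this sum came from *cd74a* and *cd74b*. The median marker was at 77.4 and 76.8 in *TATA/TATA* libraries and 6.99, 7.01 and 11.2 in *lmo1*-/- libraries, and none was at 0. Neutrophil markers (3 of 5 higher) summed to 141 and 150 in *TATA/TATA* libraries, against 25.2, 57.9 and 132 in *lmo1*-/- libraries. Most of this sum came from *lyz* and *npsn*, which were not called and overlapped between genotypes. Of the 3 called, *mpx* passed the level filter only through the *TATA/TATA* libraries. The 7 lymphoid markers, of which 4 passed the level filter, all of them only through the *TATA/TATA* libraries, summed to 20.5 and 25.4 in *TATA/TATA* libraries, against 1.55, 1.98 and 1.12 in *lmo1*-/- libraries. Erythroid markers went the other way in sum, at 31.9 and 35.3 in *TATA/TATA* libraries, against 66.1, 65.6 and 64.2 in *lmo1*-/- libraries. Most of this sum came from *hbaa1*, which was not called, and *hbba1*, which was called lower (-1.56, adjusted p = 0.0016 by edgeR). The erythroid marker *gata1a*, below the level filter, was called higher, at 1.16 and 0.969 in *TATA/TATA* libraries, against 0.244, 0.0129 and 0.0089 in *lmo1*-/- libraries. The 7 Schwann cell markers, of which 3 were called higher (*egr2b* and *erbb3b* passed the filter only through the *TATA/TATA* libraries) and *mpz*, below the filter, was called lower, summed to 15.9 and 17.3 in *TATA/TATA* libraries, against 4.89, 7.47 and 5.93 in *lmo1*-/- libraries. Most of this sum came from *mbpb*. Below the filter, *sox10* overlapped between genotypes and *mbpa* had a negative log2 fold change (-3.83), and neither was called. The part of these cells in the levels of *unc13d*, *stx11a*, *snap23.1* and the other higher genes was not tested.

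**Figure D4:**
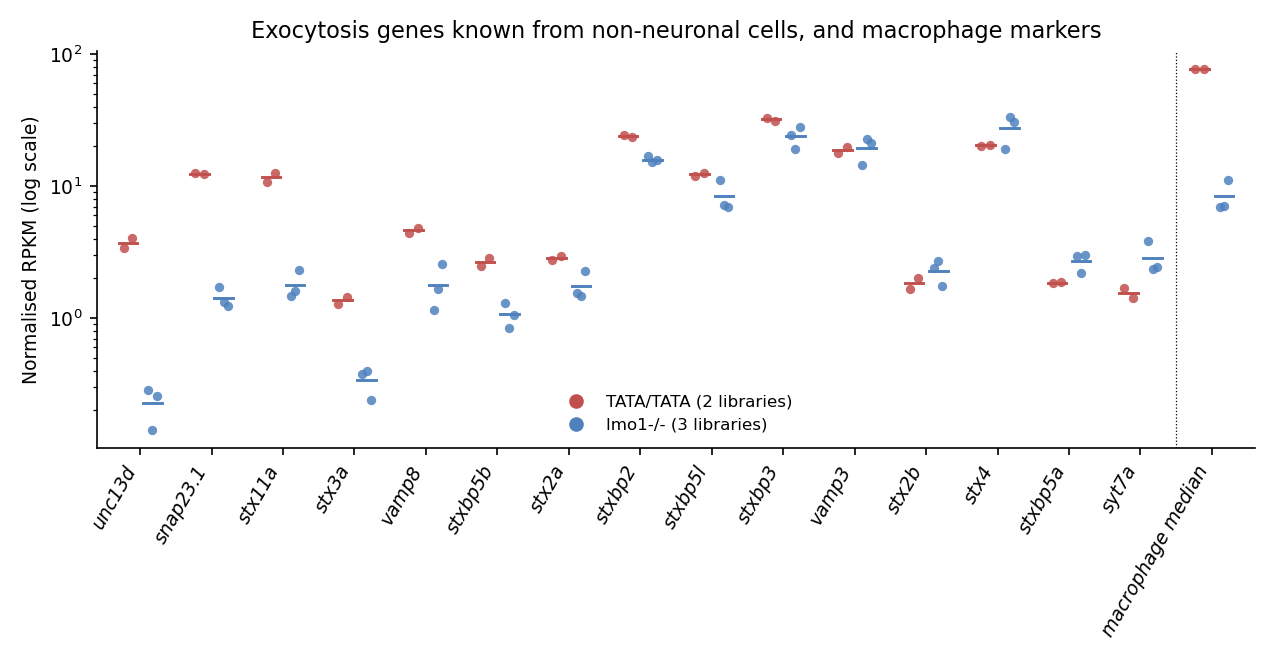
Normalised RPKM (log axis) of the listed exocytosis genes with roles in non-neuronal cells, in order of fold change, with the median of 13 macrophage markers, *TATA/TATA* left of *lmo1*-/-. Points are libraries and lines genotype means. The genotypes are far apart for *unc13d*, *snap23.1* and *stx11a*, as for the marker median (77.4 and 76.8 against 6.99 to 11.2). They are nearer to each other for *stxbp3*, *vamp3* and *stx4*, which were not called, though the points of *stxbp3* do not overlap.

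The other members higher in *TATA/TATA* tumors were *rab32a* and *sv2*. Rab32 is a Rab of lysosome-related organelles such as melanosomes and is not of the Rab3 family. The level of *rab32a* was 16.8 and 17 normalised RPKM in *TATA/TATA* tumors, against 5.80, 8.18 and 7.14 in *lmo1*-/- tumors (log2 fold change 1.26, SE 0.19, adjusted p = 0.0043 by edgeR's quasi-likelihood test), without overlap. The gene named *sv2* was at 2.21 and 1.83 in *TATA/TATA* tumors, against 0.681, 0.614 and 0.638 in *lmo1*-/- tumors (1.65, SE 0.28, adjusted p = 0.0068 by edgeR). It passed the level filter only through the *TATA/TATA* libraries, and its call was lost without either *TATA/TATA* replicate (adjusted p = 0.14 and 0.084 in edgeR). The abundant *rab39ba*, at 47.6 and 45.7 in *TATA/TATA* tumors and 30.8, 38.4 and 35.1 in *lmo1*-/- tumors, did not overlap between genotypes but missed the threshold (0.42, adjusted p = 0.077 by edgeR). It passed with the authors' library totals (0.88, adjusted p = 0.012 in edgeR) and in DESeq2 (0.45, adjusted p = 0.028).

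Of 22 pairs of a and b paralogs, 13 had both copies tested. In 6 pairs only 1 copy was called, of which *rims1*, *stxbp5* and *syn2* had both copies tested. In the rest, among them *cplx3* and *syt9*, the called copy lay below the level filter and was called in the fit of all genes with a count. In the *rab3d* and *syt6* pairs both copies were called in the same direction. Differences between copies of a pair were not tested themselves. Among pairs with both copies tested, the gap in log2 fold change was 1.86 for *stxbp5*, 1.73 for *syn2*, 1.72 for *rab3d*, 1.43 for *syt14*, 1.41 for *syt6*, 1.29 for *cadps* and 1.08 for *rims1*. The copies of *syt14* had opposite signs and neither passed.

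**Figure D5:**
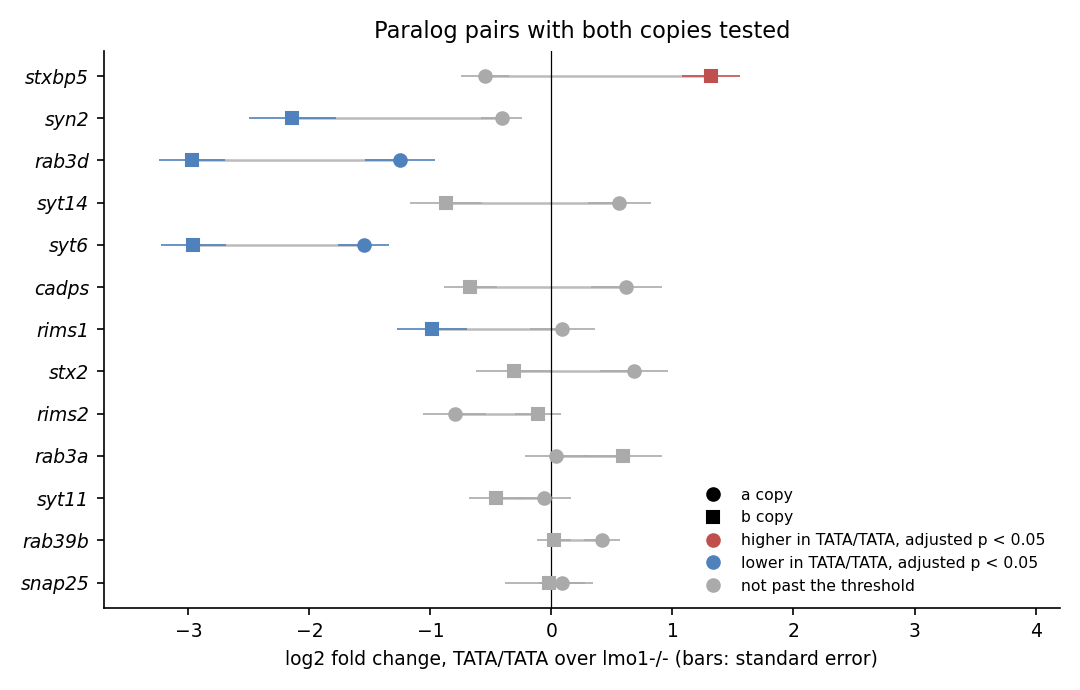
Log2 fold change (*TATA/TATA* over *lmo1*-/-, bars for the standard error) of the a and b copies of paralog pairs with both copies tested. The copies of *rab3d* and *syt6* are both below 0, while those of *stxbp5*, *cadps*, *syt14* and *rims1* lie on either side of 0.

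The *lmo1*-/- tumors also differed among themselves in some of these genes. The highest of the 3 libraries was replicate 1 for 35 of the 85 members that reached 1, replicate 2 for 24 and replicate 3 for 26. The RIM family gene *rims4* was at 0.0566 and 0.00601 normalised RPKM in *TATA/TATA* tumors and at 0.139, 0.0215 and 4.17 in *lmo1*-/- tumors, where replicate 3 held 563 reads, against 15 and 2 in the others. It was close to 0 in the remaining 4 libraries. The vesicle glycoprotein *sv2bb* was at 14.6 and 13.1 in *TATA/TATA* tumors and at 4.89, 3.50 and 17.8 in *lmo1*-/- tumors, so that replicate 3 lay above both *TATA/TATA* libraries and the others far below. Its log2 fold change of 0.67 did not pass (adjusted p = 0.48 by edgeR's quasi-likelihood test), but without *lmo1*-/- replicate 3 it was 1.77 (adjusted p = 0.0044). The complexin gene *cplx2l* was at 1.86 and 1.39 in *TATA/TATA* tumors and at 1.76, 0.254 and 0.621 in *lmo1*-/- tumors, with replicate 1 at the level of the *TATA/TATA* tumors. The priming factor gene *unc13c* was at 1.78 and 2.00 in *TATA/TATA* tumors and at 1.74, 0.478 and 1.04 in *lmo1*-/- tumors.

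Among the 34 members below the level filter, 5 were called when all 25459 genes with any read were fitted, beside 14.8% of such genes. Among those higher in *TATA/TATA* tumors were *snap23.2* (values above), *rab38b* and *cplx3a*, and lower was *syt9b*. The gene *cplx3a*, a complexin of retinal ribbon synapses, was at 0.106 and 0.287 normalised RPKM in *TATA/TATA* tumors and at 0 in each *lmo1*-/- library (at least 3.45-fold higher, adjusted p = 0.037 by edgeR), and *rab38b* was under 0.13 in every library. The gene *syt9b* was at 0.124 and 0.271 in *TATA/TATA* tumors, against 0.589, 1.16 and 1.39 in *lmo1*-/- tumors (log2 fold change -2.44, adjusted p = 0.021 by edgeR). Several genes central to release in brain synapses were low in both genotypes. The level of *syn1* was 0.103 and 0.119 in *TATA/TATA* tumors and 0.220, 0.0109 and 0.772 in *lmo1*-/- tumors, that of *unc13ba* was under 0.08 in every library and that of *cadps2* under 0.05. No read was counted on *syt1b*, *syt5b*, *cplx4b* or *cplx4c*.

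Outside the symbol rule, 69 other exocytosis genes were in the tables and 48 of them were tested, with 11 higher and 7 lower in *TATA/TATA* tumors (37.5%, close to the 36.6% of all tested genes). Of the 11 higher, 6 passed the level filter only through the *TATA/TATA* libraries. The calcium-binding Doc2 protein gene *doc2b* was at 10.1 and 9.08 normalised RPKM in *TATA/TATA* tumors, against 63.2, 78.3 and 63.7 in *lmo1*-/- tumors (log2 fold change -2.83, adjusted p = 0.00039 by edgeR's quasi-likelihood test). The vesicular monoamine transporter gene *slc18a2*, which loads catecholamines into vesicles, was at 11.8 and 11.4 in *TATA/TATA* tumors, against 36.9, 28.4 and 85.7 in *lmo1*-/- tumors (-2.12, adjusted p = 0.021 by edgeR), a call lost with the authors' library totals (-1.73, adjusted p = 0.058 in edgeR). In both genes all *lmo1*-/- libraries were above both *TATA/TATA* libraries. Among the higher genes was *rab27a*, whose product recruits Unc13d to secretory lysosomes, at 1.82 and 2.13 in *TATA/TATA* tumors, against 0.268, 0.184 and 0.329 in *lmo1*-/- tumors. It is 1 of those that passed the filter only through the *TATA/TATA* libraries. The synaptophysin gene *sypa* was at 56.4 and 54.4 in *TATA/TATA* tumors, against 35.8, 36.1 and 43.7 in *lmo1*-/- tumors. It was called higher (0.52, adjusted p = 0.041 by edgeR). Its paralog *sypb* was at 0.554 and 0.504 in *TATA/TATA* tumors, against 1.75, 1.4 and 1.02 in *lmo1*-/- tumors. The *sypb* gene lay below the level filter and was called lower when low genes were fitted too (-1.43, adjusted p = 0.038 by edgeR). Of the synaptogyrin genes, *syngr1a*, *syngr2a* and *syngr3a* were called higher, and *syngr2b* and *syngr3b* lower. The difference between *sypa* and *vamp2*, which overlapped between genotypes, was not tested.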

How the data were processed

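RNA-Seq was done on EGFP+ neuroblastoma cells of 2 *TATA/TATA* and 3 *lmo1*-/- zebrafish samples, grouped by the labelled genotype. Paired-end reads (100 bp) were mapped by the authors on danRer10 with HISAT2 2.1.0, and HTSeq assigned them to Ensembl genes by name and strand. Each deposited file gives the raw count, the exon length in bp and the authors' RPKM, relative to mapped reads.

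Raw counts were tested with the quasi-likelihood F-test of edgeR 4.0.16 (R 4.3.3) with TMM scaling. Benjamini-Hochberg adjustment was over all 13484 tested genes, with a threshold of 0.05. The level filters used the authors' RPKM, and the tested genes reached 1 in 2 or more libraries. For genes under this level a second fit took in all 25459 genes with any read. The standard error is the size of the log2 fold change divided by the square root of F. Normalised RPKM is the RPKM recomputed from counts, exon length and the TMM-scaled library size. A count of 0 was given a floor of 3 counts per library, which covers counting error alone. The scripts were tested on simulated data. The alternatives were other filters, other scalings, DESeq2 1.42.0, limma 3.58.1 on log2(RPKM + 0.1) and log2(RPKM + 1), a replicate block and leaving out each library.

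The genes named were those of the neuronal release core, the 2 most abundant of each family, the called genes with the largest fold changes and paralog pairs that differed. The members and lists were chosen with earlier results of these data known. Some members are counted but not reported by name here.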

Additional observations from a re-analysis of the deposited data

How the results depend on the processing

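The counts of members (10 higher and 11 lower) and their median log2 fold change (-0.03) depended on the scaling, and the counts also on which library was left out. With the authors' library totals there were 23 higher and 6 lower (median 0.41), and limma, which uses those totals and another test, gave 24 and 6 (pseudocount 0.1, median 0.45) or 27 and 6 (pseudocount 1, median 0.40). Library sizes without ribosomal protein genes, an alternative chosen after seeing the data, gave 15 and 7 (median 0.17). A minimum mean of 5 RPKM, which left fewer genes, gave 4 and 6. DESeq2 gave 15 and 15. Shares over all tested genes are given above only for the main fit and for the authors' library totals. Leaving out each library gave 4 to 19 higher, 4 to 17 lower and a median of -0.05 to 0.08. All 21 called members kept their sign in each of the 14 alternatives that could fit them, and 8 were called in all of those. The cause was not tested.

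The replicate numbers did not pair the libraries (correlations of deviations -0.02 to 0.02, with 2 shared numbers). A fit with a replicate block gave 13 higher and 13 lower, and 19 of the 21 members were also called.

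Some members that were not called changed sign. With the authors' library totals the log2 fold changes were 0.32 for *rab3gap2*, 0.36 for *rims2b*, 0.41 for *snap25b*, 0.21 for *snap91*, 0.01 for *stx4*, 0.04 for *syn2a*, 0.29 for *syt1a*, 0.43 for *vamp2* and 0.41 for *vamp3*. Without ribosomal protein genes they were 0.07 for *rab3gap2*, 0.11 for *rims2b*, 0.18 for *snap25b*, 0.05 for *syt1a*, 0.19 for *vamp2* and 0.16 for *vamp3*. With limma they were, for pseudocounts of 0.1 and 1 in turn, 0.34 and 0.29 for *rab3gap2*, 0.36 and 0.31 for *rims2b*, 0.53 and 0.47 for *snap25b*, 0.31 and 0.28 for *snap91*, 0.06 and 0.05 for *stx4*, 0.05 and 0.04 for *syn2a*, 0.02 and 0.01 for *syt11b*, 0.30 and 0.29 for *syt1a*, 0.46 and 0.45 for *vamp2*, and 0.44 and 0.41 for *vamp3*. Median-ratio scaling and DESeq2 each gave 0.01 for *snap25b* and 0.02 for *vamp2*. The minimum mean of 5 RPKM gave 0.05 for *snap25b*, 0.07 for *vamp2* and 0.04 for *vamp3*, and the block 0.17, 0.11 and 0.05. No filter gave -0.01 for *rab39bb*. Leaving out each library gave ranges of -0.01 to 0.08 for *rab39bb*, -0.16 to 0.27 for *rab3aa*, -0.21 to 0.07 for *rab3gap2*, -0.12 to 0.29 for *rims1a*, -0.16 to 0.02 for *rims2b*, -0.03 to 0.27 for *snap25a*, -0.30 to 0.26 for *snap25b*, -0.44 to 0.18 for *snap91*, -0.08 to 0.15 for *vamp2* and -0.22 to 0.08 for *vamp3*.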
